A study of Mus musculus with 43 samples.

Results

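tRNA-Ala fragments are the pieces of the tRNAs that carry alanine. They were taken as every entry of the 3 count tables whose name starts with tRNA-Ala- and ends with _fiveprime, _threeprime or _other, which gave 72 entries in each table. These were 72 of 4890 RNAs for epididymis tissue, 72 of 3178 for epididymal fluid and 72 of 4323 for cauda sperm. The 72 entries are 24 isodecoders, tRNAs that share an anticodon and differ elsewhere, with 3 fragment types each. There are 9 isodecoders of tRNA-Ala-AGC, 7 of tRNA-Ala-CGC and 8 of tRNA-Ala-TGC, named by their anticodons. A tRF_5′ keeps the 5′ end of the mature tRNA, a tRF_3′ keeps its 3′ end and a tRF_other keeps neither. Each of the 72 entries is accounted for here, and the entry tRNA-Ala-CGC-5_threeprime had no count in fluid or in sperm.

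The study sequenced small RNAs of male FVB mice 8 to 12 weeks old, wild type (WT) or Rnase9-12KO (KO), to ask how the deleted RNases relate to the small RNAs of the epididymis and of sperm. KO mice lack the locus with the 4 RNase A family genes Rnase9 to Rnase12, removed with CRISPR-Cas9. The epididymis is the duct in which sperm mature on their way from the caput through the corpus to the cauda. The 43 libraries fell into 14 groups. Tissue was sequenced by ARM-seq from WT and KO caput, corpus and cauda, with 3 libraries a group and 2 for KO corpus. Fluid of the same 3 segments, freed of sperm, debris and extracellular vesicles by spinning, was sequenced by OTTR-seq with 3 WT and 3 KO libraries a segment. Cauda sperm was sequenced by OTTR-seq with 4 WT and 4 KO libraries. All RNA was treated with polynucleotide kinase (PNK), which lets fragments with other end groups be ligated or copied. Each fluid and sperm library held the pooled RNA of 3 mice. The sources do not say how many mice stand behind a tissue library, so p-values for tissue measure only the spread between libraries. In tissue and sperm, fewer cells of a type and less RNA per cell cannot be told apart. In fluid, the counts do not tell apart the release of RNA by cells and its loss afterwards.

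A tRNA reads codons through its anticodon, and cells under stress or in the male tract cut tRNAs, often near the anticodon, into fragments of the 5′ and the 3′ part. Enzymes of the RNase A family are known to make such cuts. Angiogenin, a member of that family, makes a 5′ fragment of tRNA-Ala that begins with a run of guanosines, can fold into a G-quadruplex and represses translation. The RNases deleted here are predicted to lack catalytic activity. The paper detected no cutting of tRNAs by the recombinant proteins in vitro, and no significant drop in the RNase activity of KO fluid. In the tRNA with the anticodon AGC the first anticodon base is changed to inosine, and a G:U pair in the acceptor stem marks all 3 tRNAs for the alanyl-tRNA synthetase.

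A tissue library held 30142156 to 249732714 counts, of which 12086 to 417489 were tRNA-Ala fragments. A fluid library held 1948718 to 12320922 counts, with 25344 to 256282 of tRNA-Ala, and a sperm library 1134840 to 62128314, with 1814 to 126491. Fragments of all tRNAs made up 73.6% to 87.9% of the counts in fluid, 0.690% to 5.20% in tissue and 1.51% to 8.39% in sperm. The section label of 7 libraries, 1 of caput tissue and 6 of caput fluid, named the cauda where the title named the caput, and these libraries were grouped by title. The deleted genes are not in these tables, so the genotype could not be checked. Summed markers of germ cells and sperm were 17.9 to 47.0 CPM in sperm, where all 3 were listed, and under 1 CPM in the caput and cauda tissue, where 2 of the 3 were listed. Epithelial markers summed to 6.24 to 23.8 CPM in sperm and 7.57 to 25.9 CPM in tissue. Leukocyte markers summed to 3.17 to 11.1 CPM in sperm and 0.0366 to 0.195 CPM in tissue. The markers thus do not show the sperm to be free of other cells. In fluid all 5 markers of the epithelium, 3 of germ cells and 3 of leukocytes were listed, and none was at 0 throughout a group.

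The make-up of the tRNA-Ala fragments differed between the sample kinds. By summed counts, the largest class over all fluid libraries was the AGC tRF_5′, with 36.8% of all tRNA-Ala fragment counts, followed by the AGC tRF_3′ with 19.6% and the TGC tRF_3′ with 18.8%. In every sample kind a read shared by several entries is counted on each, so these ranks are of counts and not of reads. The fluid order did not hold in every group, and in WT cauda fluid the TGC tRF_3′ had the highest mean level. Over all tissue and all sperm libraries the most abundant class was the TGC tRF_3′, with 37.0% and 24.4%. In tissue the CGC tRF_3′ came next with 23.4%, and the AGC tRF_5′ held 8.17%. In sperm the AGC tRF_5′ held 17.7%. The tRF_other of the 3 anticodons reached 3.91%, 7.41% and 8.13% in sperm (AGC, CGC and TGC) and were between 0.201% and 0.505% in fluid. Sample kind and library protocol cannot be told apart between tissue and the other samples, and read lengths are not in the tables, so levels are given as shares of counts.

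Many entries counted the same reads, because the authors counted a read on every tRNA that it matched best. Entries with 100 or more counts were therefore joined into a read family where their counts across libraries differed by less than 0.05 on the Bray-Curtis scale, which runs from 0 for identical counts to 1. The 22 such tRF_5′ entries of fluid formed 8 families, the 23 of tissue 10 and the 23 of sperm 9. A tRF_5′ family of fluid held 9 entries of all 3 anticodons (AGC-3, AGC-8, CGC-1, CGC-2, TGC-2, TGC-3, TGC-4, TGC-7 and TGC-8), so levels of AGC, CGC and TGC tRF_5′ share part of their reads. The family of AGC-4, AGC-5 and AGC-10 had 198951 counts in its most counted entry of fluid, and that of AGC-6 and AGC-7 had 113695. The AGC tRF_5′ sum holds these 3 and 2 times over. No AGC tRF_3′ entries of fluid were joined, so the rank of the AGC tRF_5′ above the AGC tRF_3′ was not shown for reads. A count over families takes each family once, by its most counted entry. The tRF_3′ entries were more separate in fluid, with 19 families from 21 entries, than in tissue, with 11 families from 22 entries, or sperm, with 12 from 21.

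Different isodecoders led the tRF_5′ in different sample kinds. Over all fluid libraries the family of AGC-4, AGC-5 and AGC-10 held 44.1% of the tRF_5′ family counts, the family of AGC-6 and AGC-7 held 25.2% and CGC-5 alone held 15.2%, although CGC-5 led in WT cauda fluid, as given with its levels there. In sperm the same 3 families held 35.9%, 22% and 14.1%. In tissue the AGC-4, AGC-5 and AGC-10 family held 1.85% and CGC-5 held 2.09%, while TGC-2, TGC-3 and TGC-4 together held 33.8%, the family of AGC-3, AGC-8, CGC-1, CGC-2, TGC-7 and TGC-8 held 29.9% and AGC-6 with AGC-7 held 25.7%. Among tRF_3′, the family of CGC-1, TGC-2 and TGC-3 held 35.1% in tissue, 27.1% in fluid and 26% in sperm. AGC-2 held 25.9% of the tRF_3′ counts in fluid and 23.4% in sperm, against 5.14% in tissue. The tRF_other of CGC-5 was the largest tRF_other in tissue, with 35.5%, and in sperm, with 31.2%.

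A ratio of counts within a library carries no scaling between libraries, but it can carry the difference of protocol between tissue (ARM-seq) and the rest (OTTR-seq). The TGC-3 tRF_5′ below the line also shared its reads with different entries. In tissue its family held 3 entries, all TGC, and in fluid and sperm 9 entries of all 3 anticodons. The part of either in the ratios was not tested. The AGC-4 tRF_5′ had 0.0332 to 0.0780 counts for each count of the TGC-3 tRF_5′ in the 17 tissue libraries, with a median of 0.0496. It had 2.48 to 11.5 in the 18 fluid libraries, median 3.87, and 1.57 to 3.77 in the 8 sperm libraries, median 2.40. The plot of these ratios shows no overlap between tissue libraries on the left and fluid or sperm libraries on the right. The CGC-5 tRF_5′ gave ratios of 0.0214 to 0.130 in tissue, 0.579 to 8.17 in fluid and 0.431 to 1.33 in sperm, again without overlap between tissue and the rest. The AGC-6 tRF_5′ was less far apart, with medians of 0.696, 2.11 and 1.37 in tissue, fluid and sperm. Of the tRF_3′ pairs, the ratio of AGC-2 to TGC-3 had medians of 0.147, 0.624 and 0.940 in tissue, fluid and sperm, with tissue libraries up to 0.192 and the others from 0.218. The ratio of the AGC-4 to the TGC-3 tRF_3′ overlapped between the sample kinds, with 0.184 to 0.618 in tissue, 0.0297 to 1.64 in fluid and 0.157 to 0.654 in sperm.

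**Figure D1:**
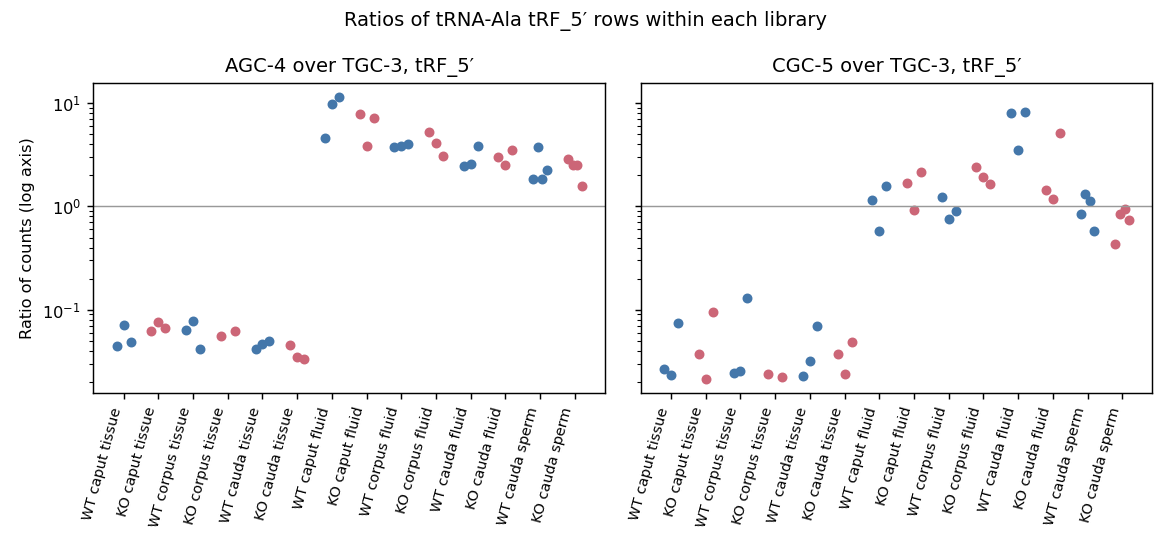
Ratio of read counts of the AGC-4 (left) and CGC-5 (right) tRF_5′ to the TGC-3 tRF_5′ on a log axis, with each point 1 library, WT in blue and KO in red, by group on the x axis. All tissue libraries lie at or below 0.130 in both panels, whereas for AGC-4 all fluid and sperm libraries lie at or above 1.57 and for CGC-5 they lie at or above 0.431. Tissue was sequenced by ARM-seq and the rest by OTTR-seq, so sample kind and protocol cannot be told apart.

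In WT fluid the AGC tRF_5′ and tRF_3′ were lower in the corpus and in the cauda than in the caput. Corpus and cauda were not tested against each other. Levels of a class, the sum of its entries, are given as CPM, counts scaled to the same total in every library after TMM, which sets the middle of most RNAs equal. The AGC tRF_5′ stood at 11412, 21114 and 17396 CPM in the 3 caput libraries, at 7880, 8747 and 7779 CPM in the corpus and at 1130, 2186 and 2065 CPM in the cauda, so that no library of a segment overlapped another segment. In edgeR the log2 fold change from caput to corpus was −1.03 (SE 0.35, adjusted p = 0.0471), and from caput to cauda −3.21 (SE 0.38, adjusted p = 3.37e-05). Both tests use the same caput libraries. Groups did not overlap in 5 of the 9 classes between corpus and caput and in 6 between cauda and caput, against 36% and 43.1% of all sums and RNAs tested. A change is called here at an adjusted p under 0.05 over all RNAs of the comparison and an absolute log2 fold change above 1. Of the sums by anticodon and fragment type of all tRNAs, together with the other RNAs, 9.19% were called lower and 6.58% higher between corpus and caput, and 14.8% and 8.63% between cauda and caput. The fall of the AGC tRF_5′ in the corpus did not pass when any of the 6 libraries was left out (WT caput 1 to 3 and WT corpus 1 to 3), with log2 fold changes from −1.15 to −0.73 and adjusted p from 0.0527 to 0.266, while the fall in the cauda passed in each case. The corpus call was made in 2 of 8 other settings and the cauda call in all 8.

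**Figure D2:**
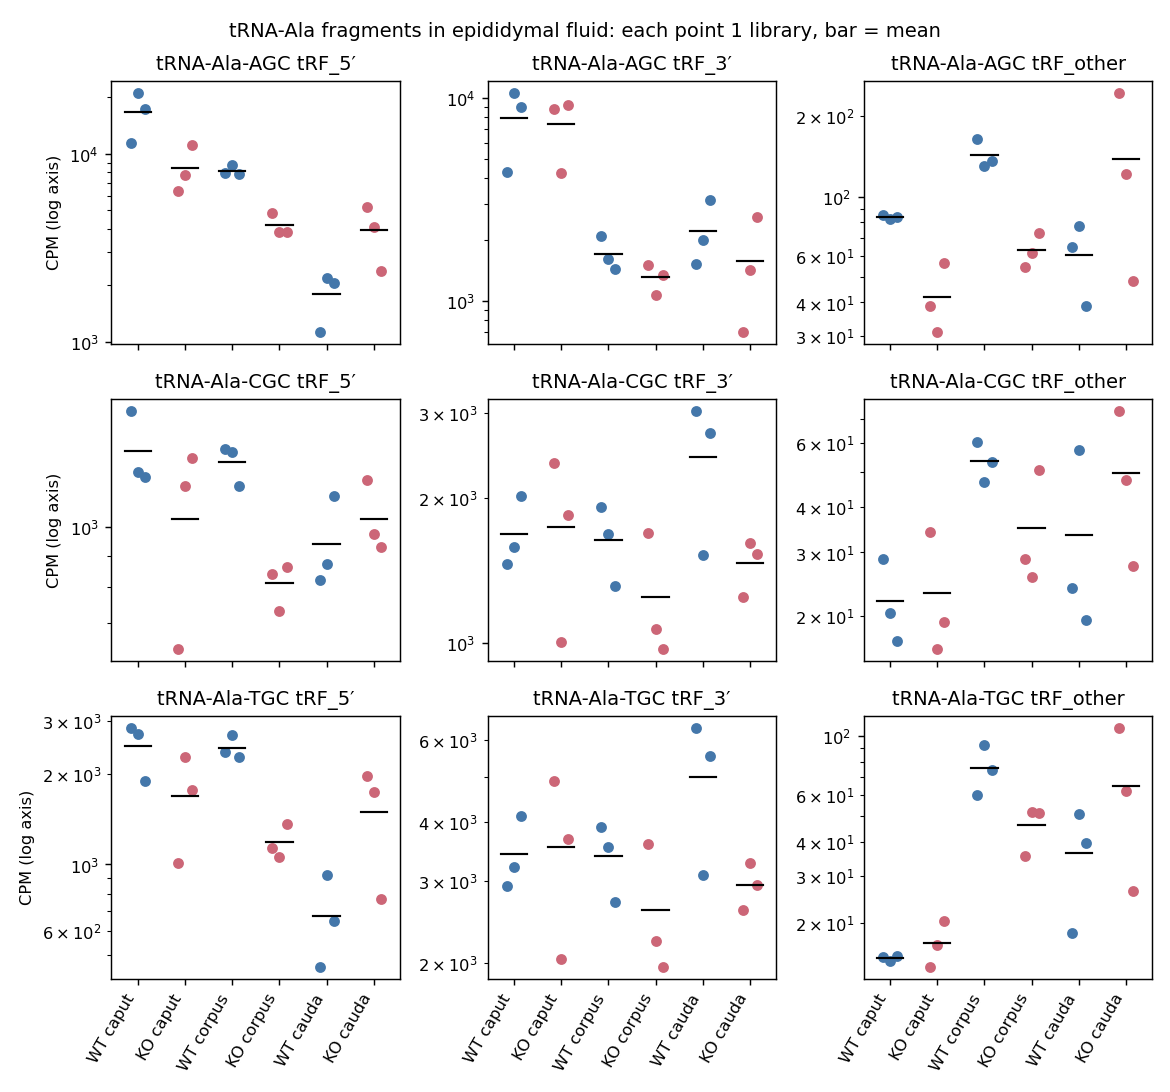
CPM of the 9 tRNA-Ala fragment classes in epididymal fluid on log axes, with each point 1 library, a bar at the group mean, WT in blue and KO in red, by segment on the x axis. In WT the AGC tRF_5′ fell from 11412 to 21114 CPM in the caput to 1130 to 2186 CPM in the cauda, where the 3 KO libraries lay between 2393 and 5244 CPM.

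The AGC tRF_3′ was also lower past the caput. It stood at 4286, 10540 and 8952 CPM in WT caput fluid, at 2074, 1613 and 1434 CPM in the corpus and at 1508, 1984 and 3143 CPM in the cauda. The caput libraries lay above all others, with a log2 fold change of −2.22 in the corpus (SE 0.45, adjusted p = 0.00347) and of −1.84 in the cauda (adjusted p = 0.00587). Without WT caput library 2 the cauda value was −1.46 with an adjusted p of 0.0607, and it was called in 7 of 8 other settings. The TGC tRF_5′ fell between the caput and the cauda, from 2836, 2704 and 1894 CPM in the caput and 2366, 2687 and 2277 CPM in the corpus to 457, 920 and 650 CPM in the cauda (−1.88 against the caput, SE 0.38, adjusted p = 0.00228). Caput and corpus libraries overlapped for this class (log2 fold change −0.02, adjusted p = 0.979).

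The TGC and CGC tRF_3′ did not pass in either comparison, and the tRF_other had their highest means in the corpus. The TGC tRF_3′ had mean levels of 3419 ± 621, 3387 ± 620 and 4991 ± 1698 CPM (SD, n = 3) in WT caput, corpus and cauda fluid, and the CGC tRF_3′ of 1685 ± 296, 1637 ± 301 and 2425 ± 796 CPM. In the cauda their adjusted p values were 0.265 and 0.279. The CGC tRF_5′ had 1328 ± 190, 1277 ± 96.8 and 940 ± 162 CPM, and its cauda libraries lay below the caput without overlap, with a log2 fold change of −0.50 that did not pass (adjusted p = 0.225). The TGC tRF_other moved the other way, from 14.9, 14.3 and 15 CPM in the caput to 60.3, 92.5 and 74.9 CPM in the corpus and 18.3, 51.1 and 39.8 CPM in the cauda. All corpus and cauda libraries lay above the caput, with log2 fold changes of 2.36 (SE 0.46, adjusted p = 0.00261) and 1.30 (SE 0.45, adjusted p = 0.0405). The second of these did not pass without WT caput library 1, 2 or 3 or WT cauda library 2 or 3 (adjusted p from 0.0622 to 0.108), and was called in 4 of 8 other settings. The CGC tRF_other had 28.7, 20.5 and 17.1 CPM in the caput and 60.6, 46.8 and 53.3 CPM in the corpus, which did not overlap (1.28, SE 0.47, adjusted p = 0.0653, called in 3 of 8 other settings), and the AGC tRF_other 83.9 ± 1.51, 143 ± 18 and 60.3 ± 19.6 CPM in caput, corpus and cauda (adjusted p = 0.240 and 0.446).

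Counted entry by entry, 59 of the 72 entries of fluid had enough counts to be tested. Between WT corpus and caput fluid 11 of them were lower and 7 higher, where 9.54% of all RNAs tested were called lower and 8.21% higher. Taken once per read family, 8 of 38 families were lower and 5 higher. The 11 were the tRF_5′ of AGC-4, AGC-5, AGC-6, AGC-7 and AGC-10 and the tRF_3′ of AGC-1 to AGC-6, and the 7 were all tRF_other (AGC-7, CGC-1, CGC-2 and TGC-1 to TGC-4). The smallest adjusted p values were those of the AGC-3 tRF_3′ (log2 fold change −2.47, SE 0.41, adjusted p = 0.00125), the TGC-4 tRF_other (2.68, SE 0.52, adjusted p = 0.00214) and the TGC-1 tRF_other (2.60, SE 0.53, adjusted p = 0.00328). The 18 calls fell to 7 without WT caput library 2 or WT corpus library 3, and to 8 without WT caput library 3 or WT corpus library 2. With scaling on RNAs other than tRNA fragments, tRNAs and rRNA-derived RNAs, 3 were lower and 9 higher, where 3.91% of all RNAs were called lower and 15.9% higher. At p under 0.05 before adjustment the counts were 12 lower and 7 higher, against 18.3% and 13% of all RNAs, and 35 entries had a log2 fold change below 0, against 58.2%. Between WT cauda and caput fluid 23 entries were lower and 3 higher, where 15.4% and 9.69% of all RNAs tested were. Of the 23, 17 were tRF_5′, led by the AGC-6 and AGC-7 tRF_5′ (each −3.41, SE 0.39, adjusted p = 1.21e-05) and the AGC-4 and AGC-10 tRF_5′ (each −3.31, SE 0.41, adjusted p = 1.30e-05). Many of these entries share reads. Taken once per read family, 9 of 38 families were lower and 3 higher. The median log2 fold change of the 38 was −0.29, with 21 below 0.

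The 3 entries that rose in the cauda were the tRF_5′ of TGC-5 (2.18, SE 0.50, adjusted p = 0.00359) and TGC-6 (2.36, SE 0.69, adjusted p = 0.0152) and the tRF_other of TGC-4 (1.75, SE 0.51, adjusted p = 0.0156), named here after their values were seen. These tRF_5′ were minor, since the TGC-5 tRF_5′ held 0.224% of the tRF_5′ family counts of fluid. Over all 59 entries the median log2 fold change between WT cauda and caput fluid was −0.54, against 0.23 for the fragments of all other tRNAs, 0.19 for tRNA-Cys fragments and −0.17 for all RNAs tested. There were 36 entries below 0, against 53.6% of all RNAs, and before adjustment 26 were lower and 11 higher at p under 0.05, against 23.6% and 15.8%. With scaling on the other RNAs, as above, 19 entries were lower and 9 higher, where 9.79% and 15.3% of all RNAs were. Summed levels of germ cell markers were 2.0 to 3.5 CPM in WT caput fluid and 15.1 to 31.6 CPM in WT cauda fluid. Those of leukocytes were 8.38 to 11.3 and 22.3 to 43.0, of smooth muscle 76.8 to 138 and 147 to 321 and of erythrocytes 23.6 to 25 and 40.0 to 61.0, while those of the epithelium overlapped. In WT corpus fluid the epithelial markers lay below the caput, at 27.1 to 62.5 against 103 to 182 CPM, and those of germ cells (3.58 to 9.06) and leukocytes (13.6 to 19.6) above it. The part of any of these in the differences from the caput was not tested.

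The CGC-5 tRF_5′ stood apart from the other abundant tRF_5′. The entry tRNA-Ala-CGC-5_fiveprime had 571, 275 and 535 CPM in WT caput fluid, 515, 365 and 358 CPM in the corpus and 670, 592 and 972 CPM in the cauda, where all 3 libraries lay above the caput (log2 fold change 0.69, SE 0.38, adjusted p = 0.182). The entry tRNA-Ala-AGC-4_fiveprime had 2273, 4691 and 3883 CPM in the caput, 1596, 1840 and 1612 CPM in the corpus and 205, 428 and 458 CPM in the cauda. As a share of tRF_5′ family counts in WT, CGC-5 therefore went from 3.24% to 11.1% in the caput through 9.55% to 14.0% in the corpus to 38.5% to 57.9% in the cauda. The share of the AGC-4, AGC-5 and AGC-10 family in WT went from 44.2% to 55.2% in the caput to 17.7% to 27.8% in the cauda. In KO cauda fluid CGC-5 had 17.9% to 40.4% and the AGC-4 family 27.8% to 38.9%, so that both ranges met those of WT. In KO corpus fluid CGC-5 had 18.8% to 19.8%, above all WT corpus libraries.

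**Figure D3:**
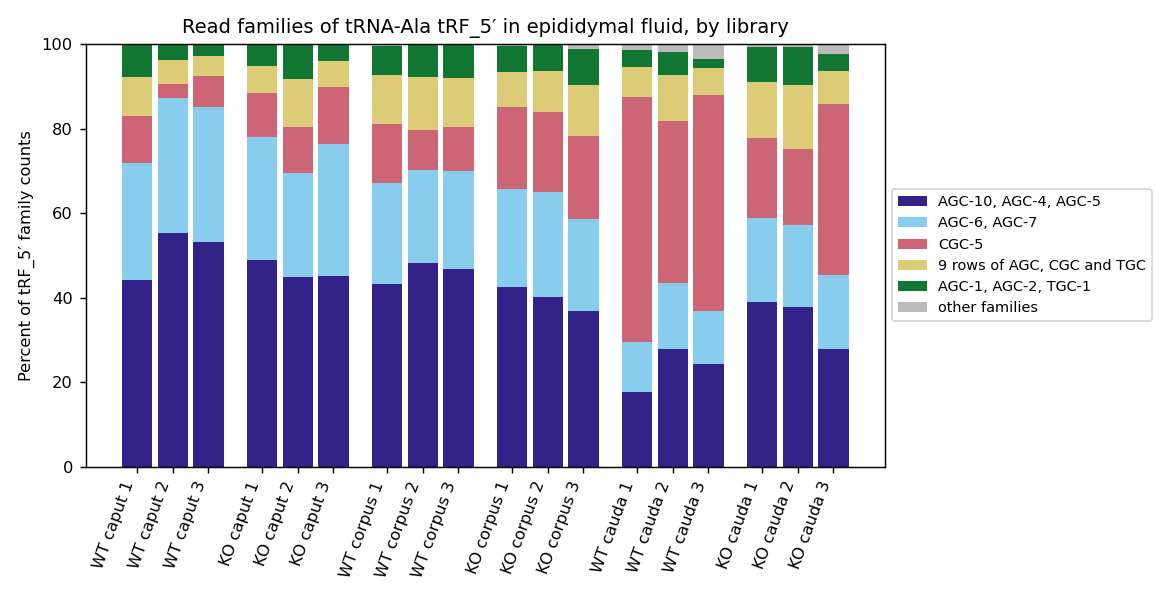
Percent of tRF_5′ family counts in each fluid library (x axis) held by each family of tRNA-Ala tRF_5′ entries that share reads, stacked to 100. CGC-5 holds 38.5% to 57.9% in the WT cauda libraries and 3.24% to 11.1% in the WT caput libraries.

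The comparison of KO with WT asks what changes in the fragments when the 4 RNases are gone. In corpus fluid the TGC tRF_5′ fell in KO by a call at the edge of the threshold, and the AGC and CGC tRF_5′ lay below WT without passing the test. The TGC tRF_5′ stood at 1132, 1062 and 1362 CPM in KO and at 2366, 2687 and 2277 CPM in WT, without overlap (log2 fold change −1.04, SE 0.37, edgeR adjusted p = 0.0495), where 3.29% of all sums and RNAs tested were called lower and 17.9% higher. The call was lost without any of 5 of the 6 libraries, all but WT corpus library 3, with adjusted p from 0.0481 to 0.113 over the 6. It was made in 4 of 8 other settings, with adjusted p from 0.00238 to 0.116. The AGC tRF_5′ stood at 4835, 3857 and 3825 CPM in KO and at 7880, 8747 and 7779 CPM in WT, again without overlap, and did not pass (−0.96, SE 0.35, adjusted p = 0.0526), but did without WT corpus library 3 (−1.16, adjusted p = 0.0496) and in 4 of 8 other settings. The changes of the TGC and AGC tRF_5′ were not tested against each other.

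The AGC tRF_other of corpus fluid stood at 54.5, 61.6 and 72.9 CPM in KO and at 164, 130.1 and 136 CPM in WT, without overlap (−1.19, SE 0.44, adjusted p = 0.0593), and was called in 4 of 8 other settings. The CGC tRF_5′ had 841, 732 and 863 CPM against 1342, 1324 and 1166 CPM, also without overlap (−0.65, SE 0.30, adjusted p = 0.124). It was called, at −1.54 (adjusted p = 0.00334), with scaling on RNAs other than tRNA fragments, tRNAs and rRNA-derived RNAs, and was −0.03 (adjusted p = 0.973) where each class was given by its most counted isodecoder. Groups did not overlap in 5 of the 9 tRNA-Ala classes, all lower in KO, and in 34.8% of all sums and RNAs tested. The 3 tRF_3′ classes overlapped, with log2 fold changes between −0.40 and −0.38 and adjusted p from 0.465 to 0.584.

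Of the 59 entries tested in corpus fluid, 6 were lower in KO and 0 higher, where 6.23% of all RNAs tested were called lower and 13.4% higher. Taken once per read family, 4 of 38 families were lower and 0 higher, with a median log2 fold change of −0.66 and 31 below 0. The 6 were the tRF_other of AGC-3, AGC-4, AGC-6, AGC-8 and CGC-2 and the tRF_3′ of TGC-1. The AGC-8 tRF_other was counted 0, 3 and 1 times in KO and 37, 23 and 12 times in WT (−2.85, SE 0.81, adjusted p = 0.0183). The AGC-3 tRF_other followed (−2.54, SE 0.78, adjusted p = 0.0273). The TGC-1 tRF_3′ had 37.3, 23.5 and 33.6 CPM in KO and 91.8, 74.9 and 62.6 CPM in WT, without overlap (−1.28, SE 0.42, adjusted p = 0.0344). The 6 calls fell to 0 without KO corpus library 1 or WT corpus library 1, to 1 without KO corpus library 3, to 2 without KO corpus library 2 and to 3 without WT corpus library 2, where 1.72% to 6.02% of all RNAs were called lower. With scaling on the other RNAs 37 entries were lower, where 26% of all RNAs were called lower and 7.12% higher. Before adjustment 24 entries were lower and 0 higher at p under 0.05, where 12.1% and 21.7% of all RNAs tested were.

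The median log2 fold change of the 59 entries in corpus fluid was −0.79, with 51 below 0 where 46.5% of all RNAs tested were, against −0.56 for the fragments of all other tRNAs, −0.71 for tRNA-Cys fragments and 0.10 for all RNAs tested. By type it was −1.01 for the tRF_5′, −0.38 for the tRF_3′ and −0.68 for the tRF_other. In the same order it was −0.44, −0.48 and −1.02 for the fragments of all other tRNAs. As a share of all tRNA fragment counts, which needs no scaling, tRNA-Ala made up 1.51% to 1.80% in KO and 2.34% to 2.80% in WT, without overlap (2-sided exact permutation test, p = 0.1, the smallest that 3 against 3 libraries allow). The tRF_5′ were 49.6% to 57.6% of the tRNA-Ala counts in KO and 58.6% to 66.2% in WT. Markers differed in the same libraries. The epithelial markers summed to 87.5 to 134 CPM in KO and 27.1 to 62.5 in WT, the germ cell markers to 12.8 to 15.4 and 3.58 to 9.06, and the leukocyte markers to 20 to 79.9 and 13.6 to 19.6, and their part in the fragment levels was not tested.

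In caput fluid the AGC tRF_5′ and tRF_other of KO lay below WT, and neither passed the test. The AGC tRF_5′ stood at 6316, 7747 and 11096 CPM in KO and at 11412, 21114 and 17396 CPM in WT, without overlap (−0.99, SE 0.35, adjusted p = 0.306). The AGC tRF_other had 38.9, 31.0 and 56.3 CPM in KO and 85.4, 82.4 and 84 CPM in WT, without overlap (−1.0, SE 0.44, adjusted p = 0.417). These were the only 2 of the 9 classes whose groups did not overlap, against 28.2% of all sums and RNAs tested. No entry was called, and 0% of all RNAs tested were called in either direction. DESeq2 also called 0 entries, and before adjustment in edgeR 9 were lower and 0 higher at p under 0.05, against 5.14% and 5.44% of all RNAs. Of the 59 entries 40 had a log2 fold change below 0, against 49.6% of all RNAs. So did 23 of 38 read families, each taken once, with a median of −0.10. All 23 tRF_5′ entries tested had a log2 fold change below 0, with a median of −0.56, while the median of the tRF_3′ was 0.03. Of the tRF_5′ of all other tRNAs 123 of 160 lay below 0, with a median of −0.24, and the median of their tRF_3′ was 0.09. Epithelial markers were at 241 to 298 CPM in KO and 103 to 182 in WT and leukocyte markers at 13.8 to 19.8 and 8.38 to 11.3, and their part was not tested.

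In cauda fluid the AGC tRF_5′ of KO lay above WT, and no class passed the test. The AGC tRF_5′ stood at 5244, 4101 and 2393 CPM in KO and at 1130, 2186 and 2065 CPM in WT, without overlap (1.13, SE 0.35, adjusted p = 0.262). The TGC tRF_5′ stood at 1967, 1742 and 768 CPM in KO and at 457, 920 and 650 CPM in WT, with the lowest KO library inside the range of WT (1.14, SE 0.37, adjusted p = 0.312). The AGC tRF_other had 245, 121 and 48.1 CPM in KO and 64.5, 77.4 and 38.9 CPM in WT, which overlapped (1.2, SE 0.44, adjusted p = 0.380). KO library 3 was the lowest KO library in all 3 classes. The AGC tRF_5′ was the 1 class of the 9 without overlap, against 10.2% of all sums and RNAs tested.

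The tRF_3′ of cauda fluid had log2 fold changes below 0, and none passed. The TGC tRF_3′ stood at 2600.1, 3283 and 2944 CPM in KO and at 6350.2, 3087 and 5536 CPM in WT, with overlap (−0.76, adjusted p = 0.579), and the CGC tRF_3′ at 1245, 1612 and 1528 CPM in KO and at 3029, 1522 and 2722 CPM in WT (−0.73, adjusted p = 0.579). By type the median log2 fold change was 1.10 for the 23 tRF_5′ entries, −0.32 for the 21 tRF_3′ and 0.85 for the 15 tRF_other. In the same order it was −0.13, −0.52 and 0.38 for the fragments of all other tRNAs. Over all 59 tRNA-Ala entries it was 0.47, against −0.11 for the fragments of all other tRNAs and 0.13 for tRNA-Cys fragments, and 21 entries lay below 0, against 45.9% of all RNAs. Entries that share reads each enter that median. Over 38 read families, each taken once, the median was 0.02, with 19 below 0. No entry was called by edgeR, where 0% of all RNAs tested were. Before adjustment 3 entries were lower and 20 higher at p under 0.05, against 2.82% and 6.48% of all RNAs tested. DESeq2 called 9 entries, the tRF_5′ of AGC-1, AGC-2, AGC-3, AGC-8, CGC-1, CGC-2, TGC-1, TGC-7 and TGC-8, all higher, where DESeq2 called 0.333% of all RNAs lower and 1.06% higher. Without WT cauda library 2 or without KO cauda library 3 edgeR called 7 of the tRF_5′, where 1.65% and 0.932% of all RNAs were called higher. The tRF_5′ made up 36.4% to 62.8% of the tRNA-Ala counts in KO and 18% to 37.0% in WT (exact permutation p = 0.200), and AGC fragments 42.2% to 46.3% in KO and 20.2% to 39.5% in WT, without overlap. The epithelial and germ cell markers overlapped between KO and WT in this segment.

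The difference of the KO effect between cauda and corpus fluid was tested itself, as an interaction in edgeR over the same libraries. It was 2.09 on the log2 scale for the AGC tRF_5′ (SE 0.49, adjusted p = 0.0160), 2.19 for the TGC tRF_5′ (SE 0.53, adjusted p = 0.0160) and 2.38 for the AGC tRF_other (SE 0.62, adjusted p = 0.0236), where 1.43% of all sums and RNAs tested had a called difference above 0 and 5.59% below 0. Of the entries, 19 had a called difference above 0 and 0 below, where 2.87% and 4.5% of all RNAs tested had. These were 17 tRF_5′ and the tRF_other of AGC-4 and AGC-6, led by the tRF_5′ of CGC-2 (2.52, SE 0.59), AGC-8 (2.57, SE 0.60) and CGC-1 (2.51, SE 0.59), each with an adjusted p of 0.0196. Before adjustment 0 entries had a difference below 0 and 29 above 0 at p under 0.05, against 13.1% and 10.1% of all RNAs. Many of the 17 tRF_5′ share reads, and the CGC-5 tRF_5′ was not among them (−0.49, adjusted p = 0.697). With scaling on RNAs other than tRNA fragments, tRNAs and rRNA-derived RNAs the 19 were 30, where 12.9% of all RNAs had a called difference above 0 and 1.88% below. The median over the 59 entries was 1.55, with 15 below 0 where 54.8% of all RNAs were, against 0.44 for the fragments of all other tRNAs, 0.75 for tRNA-Cys fragments and −0.14 for all RNAs tested, and it was 2.17 for the tRF_5′, 0.06 for the tRF_3′ and 1.70 for the tRF_other. In the same order by type it was 0.43, 0.01 and 1.30 for the fragments of all other tRNAs. Entries that share reads each enter these medians. Taken once per read family, 5 of 38 families had a called difference above 0 and 0 below. The median of the 38 was 0.64, with 12 below 0.

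These calls depended on settings and on single libraries. All 3 classes lost their call in 2 of 8 other settings, with an adjusted p of 0.0842 each with library sizes only and of 0.110 each with the groups fitted alone. The AGC tRF_5′ did not pass without WT corpus library 1 (adjusted p = 0.0528), KO corpus library 1 (0.0886) or KO cauda library 2 (0.0833), nor the TGC tRF_5′ without those or WT corpus library 2 (0.0534). The AGC tRF_other lost its call without WT corpus library 1 or 2, KO corpus library 1 or 2, WT cauda library 2 or 3 or KO cauda library 1 or 2 (adjusted p from 0.0548 to 0.0951), and the TGC tRF_other, at 1.55 (adjusted p = 0.132), passed without KO cauda library 3 (1.98, adjusted p = 0.0449). The 19 entries fell to 0 without WT corpus library 1, KO corpus library 1, WT cauda library 3 or KO cauda library 2, to 7 without KO corpus library 2 and to 10 without KO cauda library 1. The plot of the KO effects shows the signs side by side, where the 3 tRF_5′ lie left of 0 in caput and corpus fluid and right of 0 in cauda fluid.

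**Figure D4:**
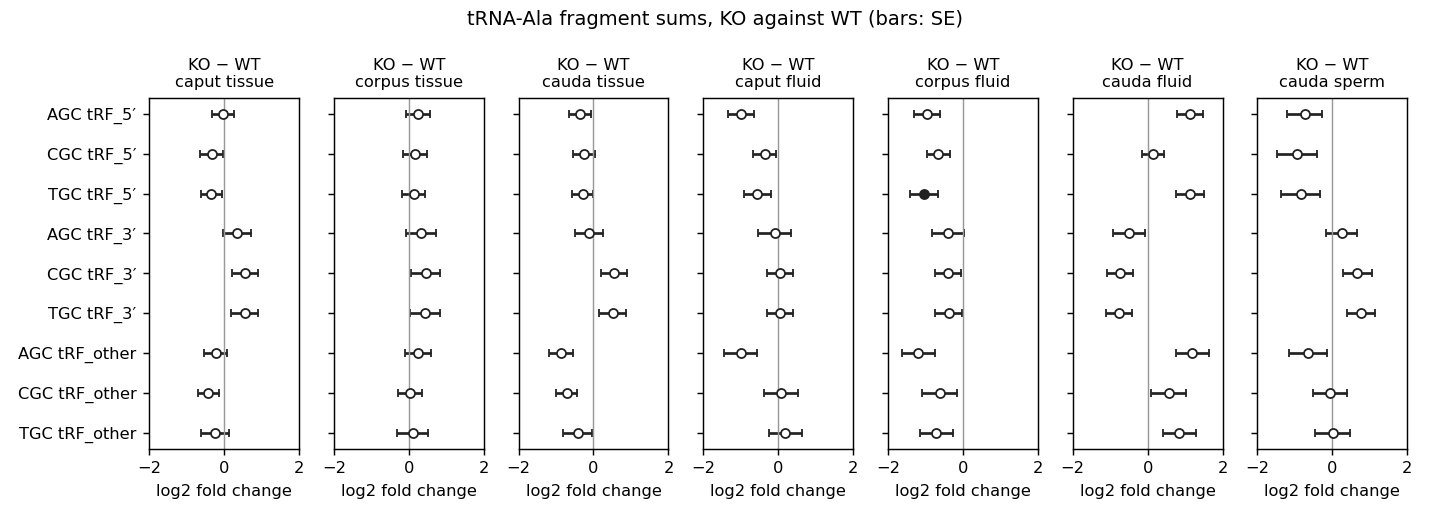
Log2 fold change of KO against WT (x axis) for the 9 tRNA-Ala fragment classes (y axis) in each segment and sample kind, with SE bars from edgeR, and filled points for called changes. The TGC tRF_5′ in corpus fluid, at −1.04, is the only filled point, and in cauda fluid the AGC and TGC tRF_5′ lie at 1.13 and 1.14.

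In tissue the classes lay within the spread of the libraries in most comparisons. The AGC tRF_5′, which fell along the duct in fluid, stood at 111, 90.4 and 74.4 CPM in WT caput tissue, at 81.1, 120 and 54.3 CPM in the corpus and at 81.7, 80.1 and 90.1 CPM in the cauda, all overlapping (adjusted p = 0.862 and 0.808 against the caput). The TGC tRF_5′ had 137 ± 31.8, 121 ± 29.3 and 128 ± 12.1 CPM (SD, n = 3) and the CGC tRF_5′ 56.5 ± 16.1, 50.5 ± 14.6 and 52.2 ± 2.63 CPM in the same order. The TGC tRF_3′ stood at 314, 228 and 443 CPM in the WT caput, at 320, 495 and 262 CPM in the corpus and at 169, 143 and 226 CPM in the cauda, where all libraries lay below the caput (−0.87, SE 0.36, adjusted p = 0.0904). The CGC tRF_3′ had 204, 149 and 274 CPM in the caput and 112, 93.4 and 136 CPM in the cauda, without overlap (−0.88, SE 0.35, adjusted p = 0.0813), and it was called in 2 of 8 other settings, at −1.05 in DESeq2 (adjusted p = 0.0466) and at −1.23 with scaling on RNAs other than tRNA fragments, tRNAs and rRNA-derived RNAs (adjusted p = 0.0485). With the replicate number as a block the adjusted p values were 0.0421 and 0.0422, and the changes still lay under the fold limit. No class was called, where 6.4% of all sums and RNAs tested were called lower and 18% higher, and groups did not overlap in 3 of the 9 classes, all lower in the cauda, against 39%.

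Of the 72 entries, 66 were tested in tissue. Between WT cauda and caput tissue 5 were lower and 0 higher, where 7.28% of all RNAs tested were called lower and 15.7% higher. They were the tRF_3′ of TGC-1 (−1.16, SE 0.34, adjusted p = 0.0194), CGC-2 (−1.04, SE 0.34, adjusted p = 0.0351), AGC-2 and TGC-4 and the tRF_other of CGC-1 (−1.12, SE 0.35, adjusted p = 0.0262). None of the 5 was called without WT caput library 1 or WT cauda library 1 or 2, and 1 entry was called without WT caput library 3 or WT cauda library 3. The median over the 66 entries was −0.49, with 60 below 0 where 52.1% of all RNAs tested were, against −0.40 for the fragments of all other tRNAs and −1.18 for tRNA-Cys fragments. Taken once per read family, 4 of 39 families were called lower and 0 higher, with a median of −0.60. Before adjustment 11 entries were lower and 0 higher at p under 0.05, against 14.8% and 19.1% of all RNAs. The 2 markers of smooth muscle, which wraps the cauda more thickly, summed to 20.6 to 40.3 CPM in WT caput and 108 to 215 CPM in WT cauda tissue, and their part was not tested.

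The tRF_other of WT corpus tissue lay below those of WT caput tissue without passing the test. The AGC tRF_other stood at 21.5, 24 and 18.4 CPM in the caput and at 9.30, 14.5 and 10.7 CPM in the corpus, without overlap (−0.89, SE 0.31, adjusted p = 0.0773), and at 14.8, 18.4 and 19.0 CPM in the cauda. The CGC tRF_other had 20.6, 18.2 and 13.1 CPM in the caput and 8.28, 10.6 and 12.1 CPM in the corpus, also without overlap (−0.75, SE 0.28, adjusted p = 0.101). With the replicate block both passed the adjusted p (AGC −0.91, adjusted p = 0.0188, and CGC 0.0456), under the fold limit. DESeq2 called both (AGC −1.15, adjusted p = 0.0101, and CGC −1.01, adjusted p = 0.00171), and edgeR with DESeq2 size factors called the AGC sum (−1.01, adjusted p = 0.0494). No entry was called, where 2.81% of all RNAs tested were called lower and 9% higher. Before adjustment 11 entries were lower and 0 higher at p under 0.05, against 6.88% and 16.9% of all RNAs. No class was called, against 2.37% of all sums and RNAs called lower and 10.4% higher, and groups did not overlap in 3 of the 9 classes, the 3 tRF_other, against 23.2%. DESeq2 called 5 entries lower, where it called 3.46% of all RNAs lower. The replicate block gave 2 lower, the AGC-5 and AGC-10 tRF_other, and leaving out WT caput library 3 also gave 2, where 3.93% and 4.15% of all RNAs were called lower. Smooth muscle markers summed to 20.6 to 40.3 CPM in WT caput and 44.2 to 87.5 CPM in WT corpus tissue and leukocyte markers to 0.0366 to 0.0934 and 0.125 to 0.151, without overlap, and their part was not tested. All 21 tRF_other entries tested had a log2 fold change below 0, with a median of −0.80, and 45 of the 66 entries did, against 46.2% of all RNAs. Of the tRF_other of all other tRNAs 183 of 189 did, with a median of −0.65.

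**Figure D5:**
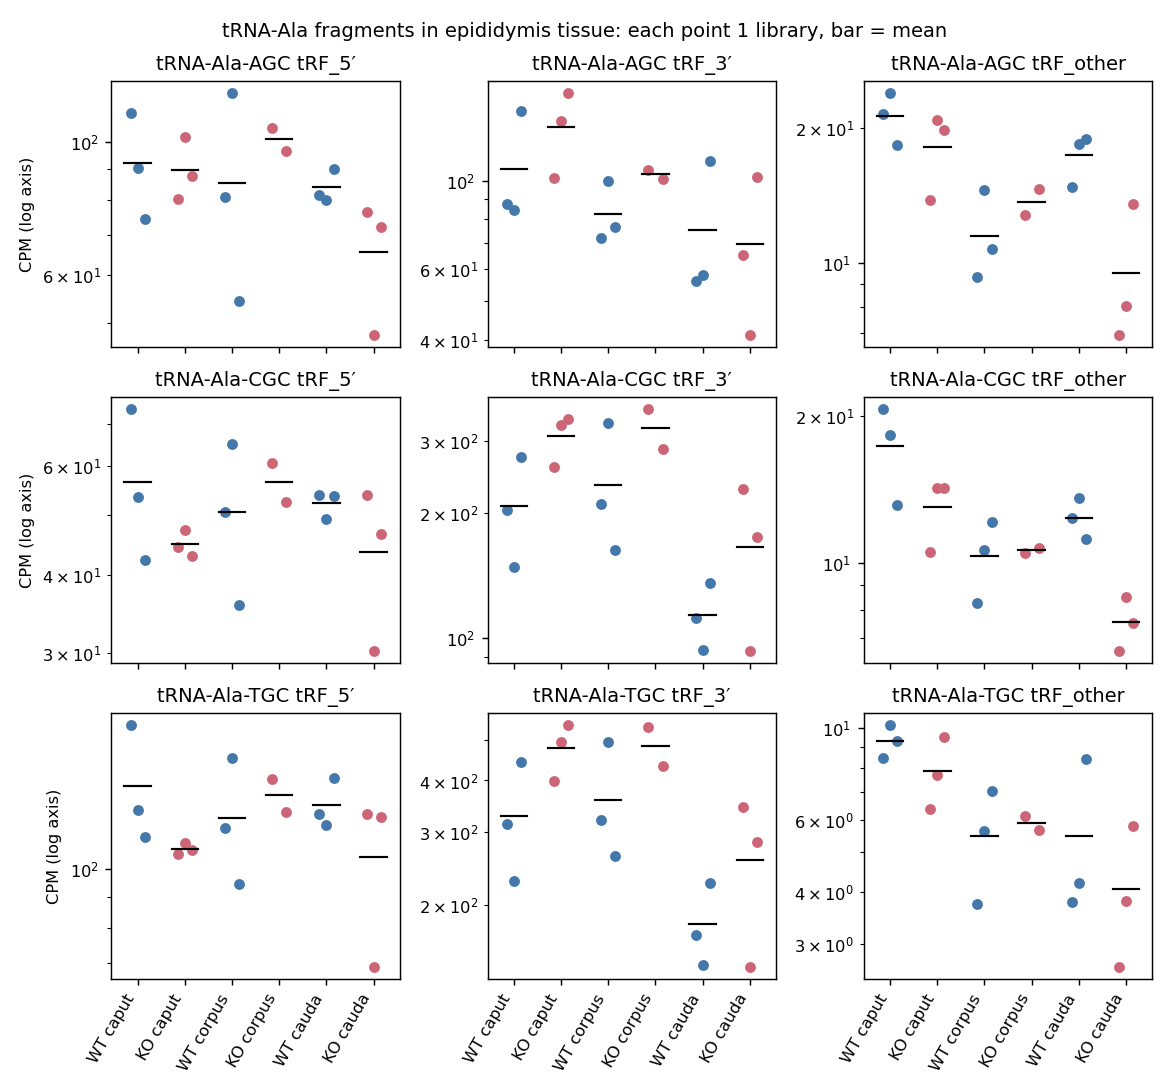
CPM of the 9 tRNA-Ala fragment classes in epididymis tissue on log axes, with each point 1 library, a bar at the group mean, WT in blue and KO in red, by segment on the x axis. The AGC tRF_other of cauda tissue lay between 6.92 and 13.5 CPM in KO and between 14.8 and 19.0 CPM in WT, whereas WT and KO overlap for all 3 tRF_3′ classes of the cauda.

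In cauda tissue the AGC and CGC tRF_other of KO lay below WT, and no class passed the test. The AGC tRF_other stood at 6.92, 8.03 and 13.5 CPM in KO cauda and at 14.8, 18.4 and 19.0 CPM in WT cauda tissue, without overlap (−0.87, SE 0.31, adjusted p = 0.229). The CGC tRF_other had 6.59, 8.51 and 7.51 CPM in KO and 12.3, 13.6 and 11.2 CPM in WT, without overlap (−0.71, SE 0.28, adjusted p = 0.284). With the replicate block the adjusted p values were 0.0554 and 0.0942, and DESeq2 called the AGC sum (−1.09, adjusted p = 0.0321). The CGC sum had log2 fold changes from −1.20 to −0.71 and adjusted p from 0.00747 to 0.545 over 8 other settings. None of the 8 met both limits for the CGC sum. Groups did not overlap in 3 of the 9 classes, the other being the AGC tRF_5′, and in 13.8% of all sums and RNAs tested, of which 0.891% were called lower and 0.033% higher. No entry was called, where 0.831% of all RNAs tested were called lower and 0.0287% higher, and before adjustment 4 were lower and 0 higher at p under 0.05, against 7.37% and 7.74% of all RNAs. The replicate numbers pair the cauda tissue libraries, and with the number as a block 3 entries were lower, the tRF_other of AGC-5, AGC-7 and AGC-10, where 3.56% of all RNAs were called lower and 5.79% higher. DESeq2 also called 3 lower, where it called 2.24% of all RNAs lower, and edgeR called 2 lower without KO cauda library 3, where 1.12% were. All 21 tRF_other entries tested had a log2 fold change below 0, with a median of −0.53, and the median of the 22 tRF_3′ entries was 0.48. So did 189 of the 189 tRF_other entries of all other tRNAs, with a median of −0.77, while the median of their tRF_3′ was −0.46. Over all types 44 of the 66 entries lay below 0, against 43.9% of all RNAs.

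In caput tissue the TGC tRF_3′ stood at 399, 495 and 544 CPM in KO and at 314, 228 and 443 CPM in WT, with overlap. The smallest p among the 9 classes was that of the CGC tRF_3′, with 260, 328 and 338 CPM in KO and 204, 149 and 274 CPM in WT, which also overlapped (log2 fold change 0.56, SE 0.35, unadjusted p = 0.129). In corpus tissue the CGC tRF_3′ had 357 and 286 CPM in the 2 KO libraries and 211, 331 and 163 CPM in WT (0.45, SE 0.39, adjusted p = 0.806). No entry was called in either segment, where 0% of all RNAs tested were, and DESeq2 called 0. Before adjustment no entry reached p under 0.05 in edgeR in either segment, where 0.659% of all RNAs were lower and 0.315% higher in the caput and 7.22% and 0.774% in the corpus. In the caput 42 of the 66 entries had a log2 fold change below 0 (45.1% of all RNAs) and in the corpus 11 (52.8%). Groups did not overlap in 1 class of the caput, the TGC tRF_5′ (6.86% of all sums and RNAs), and in 1 of the corpus, the AGC tRF_3′ (27.7%). The effects of KO in cauda and caput tissue were not shown to differ for any class, the smallest p being that of the AGC tRF_other (−0.64, unadjusted p = 0.164). No entry had a called difference, where 0% of all RNAs had, nor 1 at p under 0.05 before adjustment, where 3.67% were below 0 and 2.38% above, and 42 of the 66 entries lay below 0, against 46.4%.

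As a share of all tRNA fragment counts, tRNA-Ala made up 3.83% to 4.15% in KO and 3.0% to 3.68% in WT caput tissue, and 3.53% to 5.47% in KO and 2.42% to 2.93% in WT cauda tissue, without overlap in either segment, and overlapped in the corpus (5.01% to 5.11% and 2.87% to 5.26%). This depended on the total used. As a percent of all counts, KO differed from WT by 0.0134 percentage points in the caput and by −0.0183, the opposite sign, in the cauda. The tRF_5′ were 27.9% to 33.1% of the tRNA-Ala counts in KO cauda and 35.7% to 42.8% in WT cauda tissue, also without overlap. None of the 55 exact permutation tests of shares passed after Benjamini-Hochberg adjustment, the smallest adjusted p being 0.177. None could have passed with so few libraries, since the smallest p possible was 0.1 in tissue and fluid and 0.0286 in sperm. That none passed therefore says nothing on whether the shares differ.

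In cauda sperm the share of the tRF_5′ was lower in every KO library than in any WT library. The tRF_5′ were 14.2% to 26.1% of the tRNA-Ala counts in the 4 KO libraries and 29.4% to 42.9% in the 4 WT libraries, without overlap (2-sided exact permutation p = 0.0286, the smallest that 4 against 4 allow, adjusted p = 0.177). As above, no share could have passed after adjustment. The tRF_3′ were 51.3% to 72.5% in KO and 37.0% to 52.3% in WT (exact permutation p = 0.0571). By anticodon, AGC fragments were 29.1% to 32.3% in KO and 34.0% to 45.2% in WT and TGC fragments 42.3% to 44.8% and 31.6% to 41.0%, each without overlap (exact permutation p = 0.0286). The sperm libraries fell into 2 classes of depth, above and below 10000000 counts. Among the deep ones the tRF_5′ share was 14.2% to 26.1% in KO libraries 1 to 3 and 42.9% in WT library 1, and among the others 18.9% in KO library 4 and 29.4% to 39.4% in WT libraries 2 to 4.

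By level no class of sperm passed, and the groups overlapped in all 9, where 10.1% of all sums and RNAs tested did not overlap. The AGC tRF_5′ stood at 148, 246, 186 and 105 CPM in KO and at 474, 240.2, 314 and 114 CPM in WT, with overlap (−0.74, adjusted p = 0.520). The TGC tRF_5′ had 54.2, 102, 75.6 and 64.2 CPM in KO and 243, 73.3, 163 and 52.0 CPM in WT (−0.85, adjusted p = 0.499). The TGC tRF_3′ stood at 572, 400.3, 354 and 343 CPM in KO and at 345, 234, 232 and 165 CPM in WT, where only WT library 1 reached the range of KO (0.77, adjusted p = 0.349). Of the 58 entries tested none was called, where 0% of all RNAs tested were, and before adjustment 3 were lower and 0 higher at p under 0.05, against 9.48% and 8.02% of all RNAs. DESeq2 called 5 entries, the tRF_other of CGC-3, CGC-4, CGC-7 and TGC-5 and the TGC-6 tRF_5′, all lower, where it called 3.29% of all RNAs lower. Without WT sperm library 4, which had the lowest WT levels of these 3 classes, edgeR called 7 lower, where 7.3% of all RNAs were.

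All 22 tRF_5′ entries tested in sperm had a log2 fold change below 0, with a median of −0.84, and the median of the 21 tRF_3′ entries was 0.46. Of the tRF_5′ of all other tRNAs 137 of 145 lay below 0, with a median of −1.02, and the median of their tRF_3′ was −0.54. Over the 58 tRNA-Ala entries the median was −0.40, with 35 below 0 where 50.2% of all RNAs were, against −0.70 for the fragments of all other tRNAs and −0.36 for tRNA-Cys fragments. Taken once per read family, the median over 31 families was −0.24, with 18 below 0. The 2 erythrocyte markers summed to 1.63 to 55.4 CPM in KO and 2.64 to 7.80 CPM in WT sperm, and their part was not tested.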

How the data were processed

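Small RNA libraries of epididymis tissue, fluid and cauda sperm were grouped by the sample titles. The authors trimmed reads with cutadapt (adapter, final base and molecular tag for OTTR-seq), mapped them with bowtie2 to mm10 and mature tRNA sequences in a modified tRAX pipeline and counted them per feature. UMI-tools is named in the submitters' processing notes, and tool versions are not given in the sources used here. The deposited values are raw counts, whole numbers without normalization, and a read that matched several features equally was counted on each. Tissue, fluid and sperm tables were analysed separately.

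Low entries were removed by filterByExpr of edgeR (at least 10 counts, 15 in total), leaving 3488, 2023 and 2480 RNAs in tissue, fluid and sperm. Counts were scaled by TMM, and all groups of a table were fitted together with the edgeR quasi-likelihood test (R 4.3.3, edgeR 4.0.16, limma 3.58.1). The 9 sums of tRNA-Ala entries, with like sums of the other tRNA fragments and with all other RNAs, were fitted in the same way in tables of their own. The Benjamini-Hochberg adjustment ran over all features of a table. SE is the absolute log2 fold change over the square root of F. Shares were compared by 2-sided exact permutation tests (python 3.11.15, scipy 1.17.1), and figures used matplotlib 3.10.9. Log2 CPM used a prior count of 2. The code was tested on simulated data. DESeq2 1.42.0, other scalings, no filter, each comparison's groups alone, a replicate block and leaving out each library were tried as alternatives. Scaling on RNAs other than tRNA fragments, tRNAs and rRNA-derived RNAs, read families and sperm within depth classes were added after seeing the data. In all 46 pairs of replicates the difference exceeded sampling noise (chi-square per degree of freedom of at least 32.6). That chi-square shows the spread between libraries to be larger than counting error. It cannot show whether depth bears on the levels in other ways, which was not tested. In sperm, depth and genotype partly coincide. The deep class held 3 KO libraries and 1 WT library, and the shallow class 1 KO library and 3 WT libraries.

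Deviations of same-numbered libraries from their group means correlated in every pair for KO and WT cauda tissue (r 0.272 to 0.596), WT corpus and caput tissue (0.312 to 0.555) and WT cauda and caput tissue (0.306 to 0.633), so the numbers were taken to pair those libraries. Elsewhere the lowest r of a comparison was at most 0.0969, and no pairing was taken. That held for WT cauda and caput fluid (0.0969 to 0.144), WT corpus and caput fluid (0.0577 to 0.0817) and KO and WT caput tissue (0.0288 to 0.723), where every r was above 0. The members and lists were chosen with earlier results of these data known. Named were the 9 sums in every group, the most abundant entries, sums with an unadjusted p under 0.05 or else the smallest p, and up to 3 called entries with the smallest p in each comparison. Sequences of the fragments are not given here.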

Additional observations from a re-analysis of the deposited data

Results flagged for a closer look

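In cauda sperm the AGC tRF_3′ sum was 304 CPM in KO library 1 and 177 to 185 CPM in the other 3 KO libraries, so that library stood apart from its group. Only the sperm groups have 4 libraries, and of the 28 sums and shares looked at in them chance alone would set about 1 in 20 apart. Its total count was among the deep libraries, and the part of depth in this value was not tested.

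In fluid the effect of KO differed between cauda and corpus for the AGC tRF_5′ (2.09 on the log2 scale, edgeR adjusted p = 0.0160), the TGC tRF_5′ (2.19, adjusted p = 0.0160) and the AGC tRF_other (2.38, adjusted p = 0.0236). The epithelial, germ cell and leukocyte markers did not overlap between KO and WT in corpus fluid, whereas the epithelial and germ cell markers did in cauda fluid, and their part in these differences was not tested. Each of the 3 differences lost its call without at least 1 library and in 2 of 8 other settings, as given with the results.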

How the results depend on the processing

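Counts of called entries changed with the setting. Between WT cauda and caput tissue the 5 calls were 3 with library sizes only, 1 without a filter, 8 with scaling on RNAs other than tRNA fragments, tRNAs and rRNA-derived RNAs (below, other RNAs) and 0 with the groups fitted alone. In KO corpus fluid the 6 were 16 with DESeq2 size factors, 2 with library sizes only, 12 without a filter, 18 with DESeq2, 37 with scaling on other RNAs and 3 with the groups alone, where 7.02%, 2.92%, 4.56%, 5.42%, 26% and 6.83% of all RNAs were called lower. Between WT corpus and caput fluid the 18 were 10 with library sizes only. The 19 interaction calls were 0 with library sizes only or the groups alone and 30 with scaling on other RNAs. DESeq2 turned 0 calls into 3 in KO cauda tissue, 5 in WT corpus tissue, 9 in KO cauda fluid and 5 in sperm, and the replicate block gave 3 in KO cauda tissue and 2 in WT corpus tissue. The causes were not tested. Leaving out 1 library gave 0 to 4 calls in WT cauda tissue, 0 to 2 in WT corpus tissue, 0 to 2 in KO cauda tissue, 7 to 15 in WT corpus fluid, 19 to 30 in WT cauda fluid, 0 to 4 in KO corpus fluid, 0 to 22 for the interaction, 0 to 7 in KO cauda fluid and 0 to 7 in sperm. Taken as a percent of all counts and not of tRNA fragment counts, the tRNA-Ala share differed between KO and WT by 0.0134 percentage points in caput tissue, −0.0183 in cauda tissue and −0.0382 in sperm, the last 2 with the opposite sign, and by −0.0656 between WT cauda and caput tissue.

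With scaling on other RNAs the median of all RNAs was −0.78 in KO corpus fluid (0.10 as reported), 0.75 for the interaction (−0.14) and 0.30 in WT corpus fluid (−0.23), and with library sizes only it was −0.42 in KO cauda tissue (0.12). With scaling on other RNAs the AGC tRF_5′ fell by 1.85 in KO corpus fluid (adjusted p = 0.00308) and had a log2 fold change of −0.50 between WT corpus and caput (adjusted p = 0.379). With library sizes only the median of the entries in KO corpus tissue was −0.08. In fluid, where the replicate numbers did not pair the libraries, the replicate block gave −1.02 for the TGC tRF_5′ in KO corpus fluid (adjusted p = 0.0571), −1.01 for the AGC tRF_5′ between WT corpus and caput fluid (0.0604) and 1.26 for the TGC tRF_other between WT cauda and caput fluid (0.0501), so these 3 lost their call. The block changed no call of a class or count of calls by over 1.5 times besides those given. None of the named sums with a log2 fold change over 0.2 in size turned its sign with another scaling. The AGC and TGC tRF_5′ between WT cauda and caput fluid kept their call under all settings. The shallow sperm libraries, from 1134840 counts, limit the minor entries of sperm most.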

Other observations

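In fluid the classes whose levels followed those of tRNA-Ala most closely were mostly fragments of the same type of other tRNAs, while tissue and sperm were mixed. Likeness is Pearson's r of log2 CPM across libraries, which share depth and group differences, and is a description only. In the 18 fluid libraries the AGC tRF_5′ was most like the tRF_5′ of tRNA-Ile-TAT (0.927), the small RNA gene transcript Gm26020-201 (0.924) and the tRF_5′ of tRNA-SeC-TCA (0.884), and the AGC tRF_3′ was most like the tRF_3′ of tRNA-Ile-AAT (0.966), tRNA-Lys-CTT (0.956) and tRNA-Asn-GTT (0.946). The AGC tRF_other was most like the tRF_other of tRNA-Phe-GAA (0.889), tRNA-Ser-GGA (0.882) and tRNA-Cys-GCA (0.878).

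In the 17 tissue libraries the TGC tRF_3′ was most like the tRF_3′ of tRNA-Thr-AGT (0.876). Next came fragments of another type, the tRF_5′ of tRNA-Ser-TGA (0.811) and tRNA-Leu-TAG (0.806). The AGC tRF_other was most like the tRF_other of tRNA-Sup-TCA (0.950), tRNA-Pro-TGG (0.942) and tRNA-Lys-CTT (0.913). The TGC tRF_5′ had its closest class at 0.751, a 5S rRNA repeat copy, followed by the tRF_other of tRNA-Ser-GGA (0.721) and the tRF_3′ of tRNA-Tyr-GTA (0.712). In the 8 sperm libraries the AGC tRF_5′ was most like the tRF_5′ of tRNA-Lys-TTT (0.958), the entry mt-tRNA-His-GTG-1-1 (0.956) and the tRF_5′ of tRNA-Cys-GCA (0.949). The 3 closest to the TGC tRF_3′ were 5S rRNA repeat copies (0.980, 0.960 and 0.951). The TGC tRF_other was most like the tRF_other of tRNA-Val-AAC (0.936), a 28S rRNA repeat copy (0.935) and the tRF_other of tRNA-Val-CAC (0.923).

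The tables also hold tRNA-Ala entries that are no fragments, such as gene loci and antisense reads. The locus tRNA-Ala-AGC-6-1 had 400 counts over all fluid libraries. It was higher in KO than in WT corpus fluid (log2 fold change 1.90, SE 0.57, edgeR adjusted p = 0.0238), opposite in sign to the AGC fragments, and lower in WT corpus than caput fluid (−1.99, SE 0.55, adjusted p = 0.0153) and in WT cauda than caput fluid (−3.13, SE 0.59, adjusted p = 0.000823). All of these use few counts.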
